A study of Mus musculus with 4 samples.

Results

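The 10 genes described here code for proteins that copy, transcribe or maintain mitochondrial DNA, or act on its RNA or on mitochondrial ribosomes. These genes are Tfam, Polrmt, Tfb1m, Tfb2m, Mterfd1, Mterfd2, Mterfd3, Peo1, Polg and Lrpprc. They were chosen by symbol, and all 10 were found, each on 1 of the 36814 rows of the authors' deposited table. Their transcripts were measured by RNA sequencing in ventricles, dissected free of the atria, from mice at postnatal day 14. The samples were 2 wild type controls and 2 Hnrnpu mutants, each group with 1 male and 1 female, on a mix of C57BL/6 and 129 S4. In the mutants a conditional Hnrnpu allele was recombined by Ckmm-Cre, whose promoter, that of muscle creatine kinase, is active in heart and skeletal muscle. Cells of the ventricle in which this promoter is not active would keep the gene, so whole ventricle RNA may mix recombined and unrecombined cells. The labels do not say whether the wild type mice carried the conditional allele or the Cre. The product of Hnrnpu, hnRNP U, is an RNA-binding protein of the nucleus with a role in splicing, and the study asked what its loss does to the transcripts of the postnatal heart.

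Mitochondria keep a small circular genome that codes for core subunits of the respiratory chain and for the ribosomal and transfer RNAs needed to make them. Every protein that replicates or transcribes this genome is made from a nuclear gene and imported. Heart muscle is rich in mitochondria, and mouse hearts without Tfam lose mitochondrial DNA and respiratory function. The replication fork uses the DNA polymerase Polg and the helicase Twinkle (Peo1), while transcription starts with the RNA polymerase Polrmt, Tfam and Tfb2m. Members of the MTERF family bind mitochondrial nucleic acids, and Lrpprc keeps mitochondrial messenger RNAs stable.

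Levels are the authors' values in RPKM, that is reads scaled to transcript length and to library size, with 1 value per group. A spread over animals therefore stands beside no level, and whether the animals of a group overlap could not be seen. Tests are those of the authors' deposited table, with a gene called when its adjusted p was below 0.05. The targeted gene, Hnrnpu, was listed at 32.7 RPKM in wild type and 15.2 RPKM in mutant (log2 fold change -1.10, adjusted p = 0.438 in the authors' deposited table), so it was not called. Depth was read from small RNA genes seen in 1 group only, where 1 read in a transcript of 1 kb was worth 0.0171 or 0.0201 RPKM in wild type and 0.0065 or 0.0090 RPKM in mutant. By this worth, and with exonic lengths of a later annotation (GENCODE M21) as a stand-in, the 10 genes rested on between 73 reads (the lower estimate for Tfb2m in control) and 6734 reads (the higher estimate for Polg in mutant), summed over the libraries of a group.

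Among the 10 genes, Mterfd2 fell, from 9.12 to 1.46 RPKM, and none of the other 9 was called in either direction. Mterfd2 shares exonic bases with Sned1 on the opposite strand, which also fell. That is 1 of 10 genes called, beside 3.51% of the 24454 tested rows and 4.85% of the 9589 tested rows between 0.612 and 7.86 RPKM, the lowest and highest mean level of the 10. Counted downward alone, these shares were 1.48% and 2.18%. Of the 10 genes, 8 were listed below control and 2 above, and their median log2 fold change was -0.54, or -0.45 without Mterfd2. Over the tested rows of the same level range the median was 0.01, and 49.4% lay below control. The smallest change that was called in that range was 3.03-fold, while the 9 uncalled genes lay between 0.492 and 1.33 times control. All 9 had intervals that included no change, and 7 of the 9 intervals also reached below -1 on the log2 scale.

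**Figure D1:**
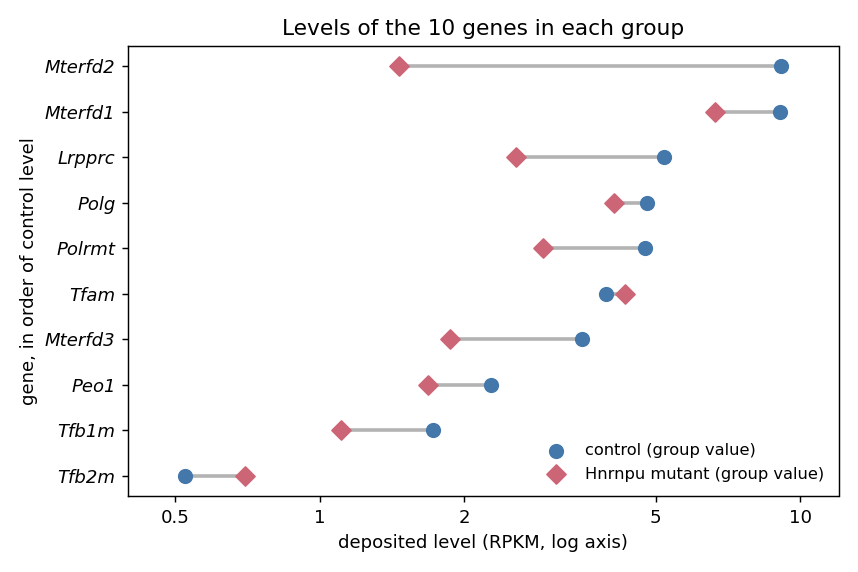
Level of each of the 10 genes (RPKM, log axis) in control (circles) and Hnrnpu mutant ventricles (diamonds), 1 value per group by the authors. Mterfd2 had the highest level in control, 9.12 RPKM, and the third lowest in mutant, 1.46 RPKM.

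The transcription machinery showed no call. Tfam, on chromosome 10 (70688212 to 70701028, minus strand, mm9), codes for the protein that bends promoter DNA for transcription and packs the mitochondrial genome into nucleoids. It was listed at 3.95 RPKM in wild type and 4.32 RPKM in mutant. In the authors' deposited table its log2 fold change was 0.13 (95% interval from -0.89 to 1.15, implied by the p-value), with p = 0.806 and adjusted p = 1, and the sign turned to -0.21 when the median of the 500 most abundant rows was subtracted. Its 2 group values were thus close, with an interval from 0.538 to 2.22 times control.

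Polrmt, the single-subunit RNA polymerase of mitochondria (chromosome 10, 79198868 to 79209326, minus strand), was listed at 4.75 RPKM in wild type and 2.91 RPKM in mutant. The authors' deposited table puts it at -0.71 on the log2 scale (95% interval, -1.70 to 0.28), with p = 0.162 and adjusted p = 0.669. Within control, the Tfam level was 0.832 times that of Polrmt, and within mutant 1.48 times. This shift in the ratio of 2 levels was not tested.

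Tfb2m and Tfb1m descend from a family of ribosomal RNA methyltransferases. Tfb2m, which melts the promoter with Polrmt (chromosome 1, 181458186 to 181476398, minus strand), had the lowest level of the 10, at 0.524 RPKM in wild type and 0.699 RPKM in mutant. Its log2 fold change in the authors' deposited table was 0.42, with adjusted p = 0.9999 and the widest interval of the 10, from -0.98 to 1.81. Tfb1m, which methylates the small ribosomal RNA of mitochondria (chromosome 17, 3519263 to 3557713, minus strand), was listed at 1.72 RPKM in wild type and 1.11 RPKM in mutant. For Tfb1m the authors' deposited table gives -0.63 on the log2 scale (95% interval from -1.97 to 0.71, p = 0.355, adjusted p = 0.897). The related pair thus lay on opposite sides of control, neither with a call, and the level of Tfb1m was 3.28 times that of Tfb2m in control and 1.59 times in mutant.

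Neither of the replication genes was called. Polg, the catalytic subunit of the mitochondrial DNA polymerase (chromosome 7, 86593677 to 86611248, minus strand), was listed at 4.80 RPKM in wild type and 4.10 RPKM in mutant. Its log2 fold change in the authors' deposited table was -0.23, with p = 0.617, adjusted p = 1 and the narrowest interval of the 10, from -1.13 to 0.67. Peo1, now named Twnk, codes for the helicase Twinkle that unwinds DNA ahead of the polymerase (chromosome 19, 45080563 to 45087252, plus strand). It was listed at 2.27 RPKM in wild type and 1.68 RPKM in mutant, for which the authors' deposited table gives -0.43 on the log2 scale (95% interval from -1.52 to 0.66, p = 0.440, adjusted p = 0.961). The level of Polg was 2.11 times that of Peo1 in control and 2.44 times in mutant.

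Lrpprc, an RNA-binding protein of the pentatricopeptide repeat family that protects mitochondrial messenger RNAs and promotes their polyadenylation (chromosome 17, 85104587 to 85190129, minus strand), had the lowest p among the uncalled genes. It was listed at 5.21 RPKM in wild type and 2.56 RPKM in mutant, a fold of 0.492. On the log2 scale the authors' deposited table puts this at -1.02 (95% interval, -2.04 to 0.0031), with p = 0.0507 and adjusted p = 0.398. Among tested rows of the same level range, 9.74% had a lower fold than Lrpprc and 15.5% had an unadjusted p below 0.05. Its partner Slirp (listed as 1810035L17Rik), which forms a complex with it, was listed at 8.56 RPKM in wild type and 7.73 RPKM in mutant (fold 0.903, adjusted p = 1 in the authors' deposited table).

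The MTERF family held the called gene. Its proteins are built of repeated helical motifs, and 3 of its members are among the 10 genes. Mterfd1, now Mterf3, a repressor of mitochondrial transcription that also acts in ribosome assembly (chromosome 13, 67013031 to 67034008, minus strand), was listed at 9.08 RPKM in wild type and 6.64 RPKM in mutant. Its log2 fold change was -0.45 in the authors' deposited table (95% interval from -1.44 to 0.54, p = 0.372, adjusted p = 0.915). Mterfd3, now Mterf2, which binds mitochondrial DNA (chromosome 10, 84582181 to 84590746, minus strand), was listed at 3.51 RPKM in wild type and 1.87 RPKM in mutant, or -0.91 on the log2 scale in the authors' deposited table (95% interval from -2.07 to 0.26, p = 0.126, adjusted p = 0.604).

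Mterfd2, now Mterf4, guides the methyltransferase Nsun4 to the large subunit of the mitochondrial ribosome (chromosome 1, 95195788 to 95202492, minus strand). It fell from 9.12 to 1.46 RPKM, or -2.64 on the log2 scale in the authors' deposited table (95% interval from -3.68 to -1.60, p = 7.09e-07, adjusted p = 9.85e-05). In control the levels of Mterfd2 and Mterfd1 were nearly the same, whereas in mutant that of Mterfd2 was 0.220 times that of Mterfd1. Of the tested rows in the level range, 0.678% had a lower fold than Mterfd2. Nsun4 was listed at 3.01 RPKM in wild type and 3.25 RPKM in mutant (fold 1.08, adjusted p = 1 in the authors' deposited table). The founding gene of the family exists in mouse as the near-identical copies Mterf1a and Mterf1b (listed as Mterf and Gm9897), with Mterf at 0.125 and 0.126 RPKM and Gm9897 at 0.208 and 0.0949 RPKM in wild type and mutant, and reads may have been split between them.

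**Figure D2:**
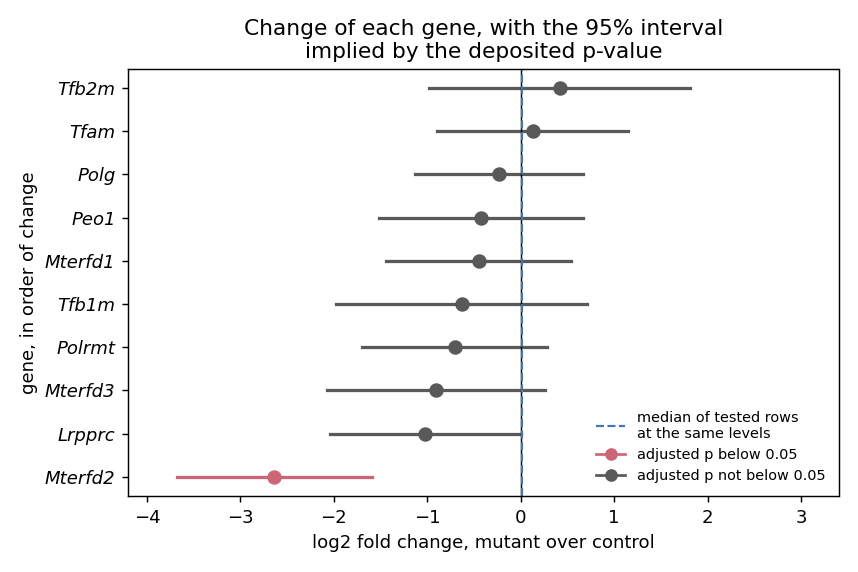
Log2 fold change, mutant over control, of each of the 10 genes from the authors' deposited table, with the 95% interval implied by the deposited p-value (lines). The dashed line is the median of tested rows at the same levels, 0.01, and the interval of Mterfd2, from -3.68 to -1.60, was the only one of the 10 that left out 0.

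Unless strand was used, reads of Mterfd2 and of its neighbour Sned1, which codes for a secreted matrix protein, cannot be told apart in the bases they share. Sned1 runs on the plus strand from 95132418 to 95197642 and overlaps the 3′ end of Mterfd2 by 1855 bases in the deposited coordinates. The level of Sned1 fell from 11.8 to 1.09 RPKM, and the authors' deposited table puts this at -3.44 on the log2 scale with adjusted p = 4.62e-07. Whether the authors' counting used strand is not given in the sources used here. In GENCODE M21 the overlap is also 1855 bases of exon, none of them coding in Mterf4, and makes up 35.2% of all exonic bases of the gene. These bases lie in 1 of 3 protein coding transcripts of Mterf4, the one of 3097 bases, of which they make up 59.9%, while the transcripts of 1366 and 1525 bases share none with Sned1.

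How much of the Mterfd2 value the shared bases could hold depends on the length that the authors used. At an even coverage equal to the Sned1 level, the shared bases would carry 4.15 of the 9.12 RPKM in control with all exonic bases as the length, and 7.07 RPKM with the transcript of 3097 bases. In mutant they would carry 0.384 or 0.653 of the 1.46 RPKM. What is left after subtraction is 4.97 RPKM in wild type and 1.08 RPKM in mutant with all exonic bases, a fold of 0.217. With the transcript of 3097 bases it is 2.05 and 0.807 RPKM, a fold of 0.393, which is a smaller fall than the weakest called one in the level range, at 0.326. These are values with no test, and reads of Mterfd2 in the same bases would in turn have been counted for Sned1 where strand was not used.

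**Figure D3:**
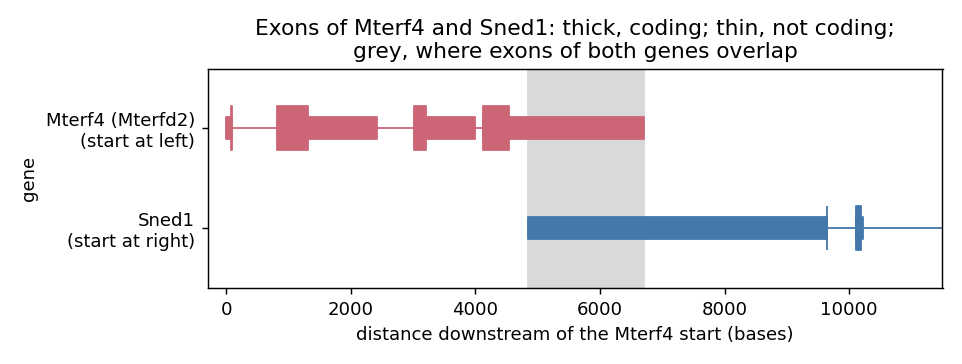
Exons of Mterf4 (the Mterfd2 row) and the 3′ part of Sned1 in GENCODE M21, drawn by distance in bases downstream of the Mterf4 start, with coding bases thick. The grey band marks the 1855 bases where the end of Mterf4 and the end of Sned1 overlap on opposite strands.

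Of the other genes, 5 also overlap a row on the opposite strand, and 4 (Tfam, Polrmt, Mterfd3 and Lrpprc) overlap none. Mterfd1 shares 229 exonic bases, 4.67% of its own, with Ptdss1, a phosphatidylserine synthase, which was listed at 4.52 RPKM in wild type and 11.3 RPKM in mutant (p = 0.00909, adjusted p = 0.149 in the authors' deposited table). Peo1 shares 12.6% of its exonic bases with Mrpl43, a mitochondrial ribosomal protein gene transcribed from the same region in the other direction, listed at 11.3 RPKM in wild type and 14.8 RPKM in mutant. Polg shares 8.57% with Fanci, a DNA repair gene listed at 1.64 and 1.15 RPKM, and Tfb1m 3.93% with Tiam2, listed at 0.368 and 0.260 RPKM. Inside Tfb1m and Tfb2m also lie AC122350.1 and the pseudogene Gm15480, neither above 0.129 RPKM in either group. None of these 6 overlapping rows was called, and each of the shares with a value was smaller than the 35.2% of Mterfd2. How many reads the shared bases could hold also depends on the level of the overlapping row. Mrpl43 was listed well above Peo1, which stood at 2.27 RPKM in wild type and 1.68 RPKM in mutant. Unless strand was used, reads of Mrpl43 could thus make up a part of the Peo1 values in both groups, possibly most of them. The size of that part was not calculated, so the Peo1 levels and their ratio to Polg may not be those of Peo1 alone.

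Order by level differed between the groups. From the highest to the lowest, control read Mterfd2, Mterfd1, Lrpprc, Polg, Polrmt, Tfam, Mterfd3, Peo1, Tfb1m and Tfb2m. Mutant read Mterfd1, Tfam, Polg, Polrmt, Lrpprc, Mterfd3, Peo1, Mterfd2, Tfb1m and Tfb2m. Tfam stood in place 6 in control and place 2 in mutant, and Lrpprc in places 3 and 5. With 1 value per group, neighbours in these orders could not be compared with a spread. The summed level of the 10 genes was 44.9 RPKM in wild type and 27.3 RPKM in mutant, and Mterfd2 made the largest single contribution to that difference.

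What the 10 proteins act on could not be read from these data. The table has 38 rows for the mitochondrial genome, of which 13 are protein coding, 22 are transfer RNAs, 2 are ribosomal RNAs and 1 is a microRNA. Each was listed at 0 in both groups, although such transcripts are abundant in every heart cell, so the zeros are listed values and say nothing of the RNA level.

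The genes that work beside the 10 gave 1 call among 95 in 4 lists of the same pathway, beside 3.51% of all tested rows. An unadjusted p below 0.05 was found in 12.6% of all tested rows, against which the counts of each list can be read. In the list of DNA replication and nucleotide supply, 0 of 27 genes were called by the authors' deposited table, 2 had an unadjusted p below 0.05, and the median log2 fold change was -0.23 with 19 genes below control. Dna2, a nuclease and helicase that trims flaps of DNA, was listed at 0.548 RPKM in wild type and 0.201 RPKM in mutant (p = 0.029, adjusted p = 0.297 in the authors' deposited table). Abat, which breaks down the transmitter GABA and also takes part in mitochondrial nucleoside metabolism, was listed at 0.300 and 0.708 RPKM (p = 0.0381, adjusted p = 0.348 in the authors' deposited table). Slc25a36, a carrier of pyrimidine nucleotides, was listed at 7.61 and 3.93 RPKM (p = 0.0678, adjusted p = 0.460 in the authors' deposited table). Among partners of the 10 genes, Polg2, the accessory subunit of the polymerase, was listed at 0.323 and 0.408 RPKM, and Ssbp1, which coats single-stranded DNA, at 3.20 and 2.02 RPKM, neither with a call.

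In the list of mitochondrial transcription and RNA processing, 0 of 40 genes were called in the authors' deposited table and 0 had an unadjusted p below 0.05. Their median log2 fold change was 0.00088, with 20 genes below control and 20 above, beside 0.07 over all tested rows. The lowest p-values belonged to Fastkd1, a regulator of mitochondrial RNA, at 2.38 RPKM in wild type and 1.35 RPKM in mutant (p = 0.117), Mrm1, a ribosomal RNA methyltransferase, at 3.82 and 2.16 RPKM (p = 0.12), and Rexo2, an exonuclease of short RNA, at 17.7 and 29.6 RPKM (p = 0.145 in the authors' deposited table). Tefm, the elongation factor of Polrmt (listed as 1110002N22Rik), was at 2.95 RPKM in wild type and 3.52 RPKM in mutant, and Mrpl12, a ribosomal protein that also binds Polrmt, at 30.5 and 36.4 RPKM.

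Of 20 nuclear regulators of mitochondrial biogenesis, 1 fell and 0 rose in the authors' deposited table. The gene that fell was Ppargc1b, a coactivator of genes for oxidative metabolism, from 14.8 to 3.18 RPKM (adjusted p = 0.00225 in the authors' deposited table). Ppara, a nuclear receptor of fatty acid metabolism, was listed at 3.31 and 1.18 RPKM (p = 0.00546, adjusted p = 0.107 in the authors' deposited table), and Esrrg, an orphan nuclear receptor, at 1.62 and 0.802 RPKM (p = 0.0702, adjusted p = 0.470). The list had 14 genes below control, 2 at an unadjusted p below 0.05 and a median of -0.38 on the log2 scale. Nrf1, a transcription factor with known target sites at genes of the mitochondrial transcription machinery, was listed at 0.929 RPKM in wild type and 0.952 RPKM in mutant. Gabpa, the DNA-binding subunit of GABP (also named NRF-2), was at 4.76 and 3.77 RPKM, and its partner Gabpb1 at 1.70 and 1.02 RPKM, all 3 without a call.

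Among 8 matrix proteases and chaperones, 0 were called and 2 had an unadjusted p below 0.05 in the authors' deposited table. They were Hspa9, the matrix form of the heat shock protein 70 family, at 38.3 RPKM in wild type and 94.5 RPKM in mutant (p = 0.0355, adjusted p = 0.333 in the authors' deposited table), and Lonp1, the protease that degrades Tfam protein not bound to DNA, at 15.5 and 32.9 RPKM (p = 0.040, adjusted p = 0.357). Hspd1, a chaperonin, was listed at 5.12 and 3.77 RPKM (p = 0.398 in the authors' deposited table). The median log2 fold change of the list was -0.12, with 5 genes below control. At the level of RNA, Tfam and Lonp1 were thus listed at 1.09 and 2.13 times control, and the difference between them was not tested.

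**Figure D4:**
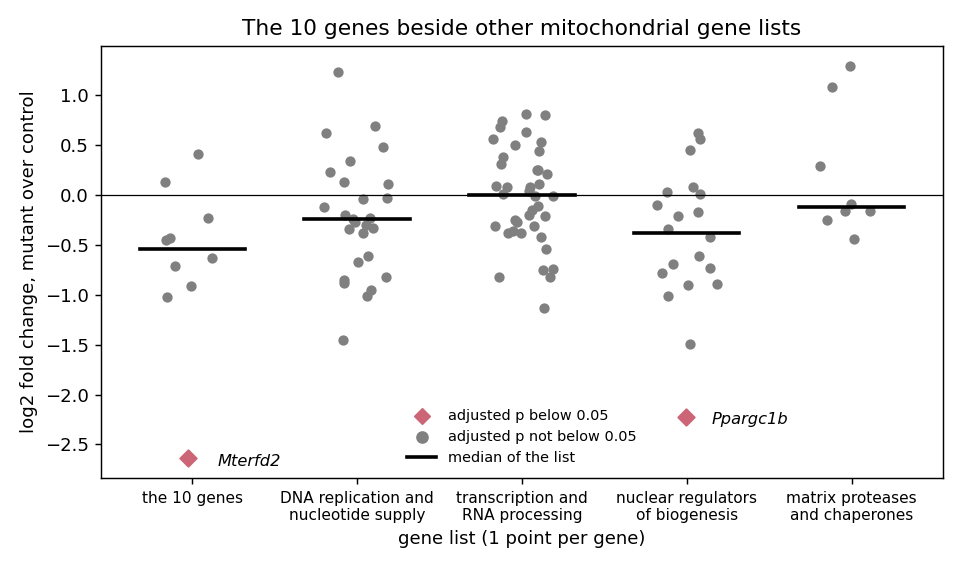
Log2 fold change, mutant over control, of the 10 genes and of the genes in 4 pathway lists, from the authors' deposited table, with 1 point per gene, the median of each list as a bar and called genes as diamonds. The medians were -0.54 for the 10 genes and -0.23, 0.00088, -0.38 and -0.12 for the lists from left to right, and Mterfd2 and Ppargc1b were the called genes.

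The promoters of the 10 genes are shown because both Nrf1 and GABP are known regulators of this machinery and were measured beside it. RefSeq sequences (GRCm38.p6, from 250 bases before to 50 bases after each start) were found for 9 of the 10 genes, and Mterf3 had no entry. The motif CCGGAAG, the core of GABP sites, was searched on both strands and found in 5 of the 9 genes, and in 8.86% of all 32851 promoters of that length. The motif GCATGCGC, the core of NRF1 sites, was found in 2 of the 9 genes and in 2.71% of all promoters. The 9 are counted by gene and the shares by promoter. Twnk and Mterf2 each had 2 promoters, and a match in either was enough. A match is a description of the letters and was not tested as a site. The CCGGAAG matches stand below in capitals, read on the strand of the gene, where CTTCCGG is the match on the other strand. Capitals in the last pair mark GCATGCGC or its reverse complement GCGCATGC.
Tfam, chr10:71238065-71238111, minus strand: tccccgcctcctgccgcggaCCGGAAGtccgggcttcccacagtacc
Polg, chr7:79466285-79466331, minus strand: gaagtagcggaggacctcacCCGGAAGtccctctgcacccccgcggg
Polrmt, chr10:79746598-79746644, minus strand: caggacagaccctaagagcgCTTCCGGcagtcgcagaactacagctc
Mterf4 (Mterfd2), chr1:93305854-93305900, minus strand: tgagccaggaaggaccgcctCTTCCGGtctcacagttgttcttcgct
Twnk (Peo1), chr19:45006428-45006474, plus strand: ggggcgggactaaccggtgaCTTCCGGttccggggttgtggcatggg
Twnk (Peo1), chr19:45006472-45006518, plus strand: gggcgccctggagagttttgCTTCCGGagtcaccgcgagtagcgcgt
Polrmt, chr10:79746697-79746724, minus strand: gagtatttctGCGCATGCtctcttgccg
Tfb2m, chr1:179546246-179546273, minus strand: taggtcgttcGCATGCGCcattcgtaat

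The positions of the matches were alike in several genes. Counted from the transcript start, CCGGAAG or its reverse complement began at base -47 in Tfam, -43 in Polrmt and -38 in Polg, and the match of Mterf4 began at base -1. Twnk has 2 listed starts, and both of its matches, at -110 and -66, belong to the second. The genes with a CCGGAAG match had folds of 1.09 (Tfam), 0.613 (Polrmt), 0.160 (Mterfd2), 0.742 (Peo1) and 0.854 (Polg) in the authors' deposited table. Those without a match had folds of 0.645 (Tfb1m), 1.33 (Tfb2m), 0.533 (Mterfd3) and 0.492 (Lrpprc). The 2 sets of folds overlapped, and no test was run on them.

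Longer context is given for Polrmt, which holds both motifs, as the 250 bases before its start (chr10:79746582-79746831, minus strand), with both matches in capitals.
Polrmt upstream: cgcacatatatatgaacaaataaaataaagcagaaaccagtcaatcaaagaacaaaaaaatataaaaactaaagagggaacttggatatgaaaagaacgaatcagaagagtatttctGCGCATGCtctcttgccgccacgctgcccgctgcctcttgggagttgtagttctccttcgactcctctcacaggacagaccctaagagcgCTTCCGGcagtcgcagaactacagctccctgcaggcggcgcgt

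All 36 markers checked for cardiomyocytes, fibroblasts, macrophages, endothelial and mural cells were above 0 in both groups. The 10 cardiomyocyte markers summed to 7694 RPKM in wild type and 5893 RPKM in mutant, with 9 below control, 0 called and a median log2 fold change of -0.44. Ryr2 alone among them had an unadjusted p below 0.05 in the authors' deposited table. The 6 macrophage markers summed to 44.1 and 102 RPKM, all 6 above control, and the 8 fibroblast markers to 688 and 965 RPKM, with 6 above control, 0 called in either list and 3 in each at an unadjusted p below 0.05. The 6 endothelial markers summed to 117 and 102 RPKM, with 5 below control, a median of -0.45, 0 called and 0 at an unadjusted p below 0.05. The 6 mural markers summed to 268 and 927 RPKM, with 2 below control and a median of 0.20. Most of that difference in sums came from Acta2, at 158 and 802 RPKM without a call, while Tagln rose and Rgs5 and Myh11 were below control. Acta2 and Tagln were the 2 mural markers with an unadjusted p below 0.05, and Tagln was the 1 called. In whole ventricle RNA, fewer cells of a type and less RNA per cell cannot be told apart, and the part of these markers in the values of the 10 genes was not tested.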

How the data were processed

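RNA sequencing of ventricles from 2 control and 2 Hnrnpu mutant mice was used as 1 deposited table. Its values were made by the authors and are, per the file headers, RPKM for each group, a fold (ratio, mutant over control) with its log2, and p-values before and after adjustment. Bowtie 0.12.9, DESeq and mm9 appear in the submitters' processing notes, with no role for each. How genes were annotated and reads counted, and whether strand was used, is not given in the sources used here. An adjusted p was missing for the 12360 of 36814 rows with 0 RPKM throughout. The design foresaw this test for a table without values per sample. The labels do not say that samples of a group were littermates or separate preparations. The p-values rest on 2 samples per group, 1 male and 1 female, so sex differs within each group. How the spread was estimated is not given in the sources used here.

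The 95% intervals came from the log2 fold change and the normal score of the deposited p-value, and are approximate. Of the small RNA genes seen in 1 group only, 77 of 100 in control and 112 of 145 in mutant lay within 3% of the 2 values taken as the worth of 1 read. Lists were matched by symbol or RefSeq synonym, and all 95 genes were found. The genes named were the 10, the rows overlapping them, Hnrnpu, and of each list the called genes and the 3 with the lowest p. Polg2, Ssbp1, Slirp, Tefm, Mrpl12, Nsun4, Mterf1a, Mterf1b, Nrf1, Gabpa and Gabpb1 were added for their roles after their values were seen. The 10 genes and the lists were chosen with earlier results of these data known. Whether the 95% intervals hold the true change as often as stated was not tested for these data. Python 3.11.15, pandas 2.3.3, numpy 2.4.6, scipy 1.17.1 and matplotlib 3.10.9 were used.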

Additional observations from a re-analysis of the deposited data

How the results depend on the processing

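The count of 1 called gene among the 10 was the same with p-values adjusted over rows with a mean of at least 1 RPKM, of at least 5 RPKM or over protein coding rows, at an adjusted p below 0.1 and at an unadjusted p below 0.05. It was 2 by the size rule of at least 2-fold, which adds Lrpprc, and 0 without Mterfd2, a setting chosen after seeing the data. At 5 RPKM, Mterfd1 and Mterfd2 were the only ones of the 10 still tested. The median log2 fold change of the 10 genes ran from -0.88 to -0.38 over 5 settings. Subtracting the median of rows with a mean of at least 1 RPKM shifted values by 0.08, and that of the 500 most abundant rows by 0.34, which turned Tfam to -0.21. Of 62 values of single genes listed over the settings, that was the 1 that changed sign. A pseudocount cannot change a sign, and a new adjustment leaves the fold as deposited, so only the subtractions could. Calls of single genes could change only under the new adjustments, and none did. With a pseudocount of 1, Mterfd2 was at -2.04. The count of 1 called gene in the 4 pathway lists did not move under the 3 settings run. No paired analysis was possible because the table holds 1 value per group, and leaving out replicates was not run for the same reason. By the estimates of reads, Tfb2m rested on the fewest of the 10 genes in each group.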

Other observations

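Near Mterfd2 and Sned1, the other rows within 100000 bases had no call. Upstream of Mterfd2, Pask, a kinase, stood at 0.261 RPKM in wild type and 0.145 RPKM in mutant (p = 0.220 in the authors' deposited table), and Ppp1r7, a regulator of protein phosphatase 1, at 0.987 and 1.12 RPKM (p = 0.737). On the far side of Sned1, E030010N08Rik was listed at 0.101 and 0.0245 RPKM (p = 0.0833 in the authors' deposited table). The 2 called rows of this stretch were the 2 that overlap each other. None of the other rows was listed above 1.12 RPKM in either group, so their lack of a call says little. E030010N08Rik and Pask were listed below control, with folds of 0.242 and 0.555, and the rest above.

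The same pairing was counted over the whole table, among tested rows that had an end coordinate and averaged at least 1 RPKM. Of 53 rows that overlap a row called lower on the opposite strand, 6 were called lower, or 11.3%, and Mterfd2 and Sned1 are 2 of them. Of 3314 rows that overlap tested rows on the opposite strand, none of those called, 44 were called lower, or 1.33%. Of 7739 rows that overlap no tested row on the opposite strand, 166 were called lower, or 2.14%. For rises the shares were 42.6% of 68 rows that overlap a row called higher, 1.90% of the 3314 and 3.62% of the 7739. Overlapping rows come in pairs and are not independent, so these shares are a description. Use of strand in the counting was not tested.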
